A study of Caenorhabditis elegans with 9 samples.

Results

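The nematode Caenorhabditis elegans carries a large family of cuticle collagen genes, most of which are known by a number (col-2, col-10 and so on). All 159 genes whose symbol in the deposited count table starts with col- are described here, of 45461 rows in all, in each of 9 RNA sequencing libraries. Cuticle collagens named for a body shape or movement (dpy, sqt, rol, bli and lon) are not members and are compared as a list at the end. The choice used the symbol and no measured value. The libraries were made from whole adult worms, harvested 48 hours after the last larval stage (L4), with 3 libraries in each of 3 groups. Control worms lived on NGM agar plates with water, the solvent. The others lived on plates with nicotinic acid, a vitamin that serves as a precursor of NAD, or with 1-methylnicotinamide (MNA), the methylated form of nicotinamide, at 1 µM. All plates came from 1 batch of agar. For nicotinic acid the labels conflict: the sample source gives 1 mM and the treatment protocol 1 nM, so its dose is uncertain and differs from that of MNA under either reading. No strain, sex or genotype is named in the labels. Whether the replicates came from separate cultures is not given, so a p-value covers the spread among these libraries, which may be technical.

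The cuticle is the worm's outer coat. The epidermis secretes it and makes it anew at each moult, mostly from short collagens that are folded as triple helices, trimmed, secreted and crosslinked. Collagen genes are switched on in waves within a larval stage, and some serve the cuticle of a single stage: a set comes on around the last moult, when the adult cuticle is made, while others belong to the larval cuticle or to that of the dauer larva, a resting form. Adults no longer moult, but their epidermis keeps expressing part of the family, and the collagens col-10, col-13 and col-120 are known from work on long-lived worms.

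Each library held between 18501261 and 31247605 counts. CPM is a gene's share of these, scaled to a library of 1000000 counts. The floor of detection was set at 3 counts, which equals 0.096 to 0.162 CPM. This floor covers counting error only. The adult label was checked with the 6 yolk protein genes, which the gut of adult hermaphrodites expresses. They summed to 49357 to 71722 CPM in the 9 libraries. Values of 3 libraries are given in the order of replicates 1, 2 and 3, and group means carry the SD over n = 3 libraries. Fold changes are log2 values with the standard error (SE) of 1 edgeR quasi-likelihood model of all 9 libraries and 13985 genes. P-values are adjusted by Benjamini-Hochberg over all of these genes, with a threshold of 0.05, and "rose" and "fell" stand for changes that passed it. The model was also fitted 9 times with 1 library left out. In whole worms, fewer cells of a type and less RNA per cell cannot be told apart.

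Of the 159 collagen genes, 112 had enough counts to be tested and 47 had not. Enough counts in 3 libraries sufficed, so a gene of low level could be tested because 1 group was high. The family was spread over all 6 chromosomes, with 42 genes on IV, 30 on V, 28 on X, 25 on II, 22 on I and 12 on III. In the WBcel235 annotation (Ensembl) the median exon length was 1020 bases with a median of 2 exons, against 1187 bases for all protein-coding genes of the table. Lengths ran from 465 to 2960 bases, the longest being that of col-99. Many members are neighbours: 19 runs of collagen genes with no other protein-coding gene between them held 45 of the 159, and the longest run was col-167 to col-171 on chromosome X. Neighbours could differ widely in level. In 1 run on chromosome II, col-20 stood at 537 CPM per kb of exon over all libraries, next to col-17 at 34.8 and col-73 at 18.9 CPM per kb.

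A few genes carried most of the family's mRNA. Per kb of exon, the highest was col-119 (C53B4.5, chromosome IV) at 1543 CPM per kb over all libraries, followed by col-140 (F26F12.1, chromosome V) at 1109.5, col-122 (T05A1.2, chromosome IV) at 1057 and col-181 (W03G11.1, chromosome X) at 747. The next were col-106 at 548, col-20 at 537, col-95 at 511, col-184 at 477, col-101 at 442 and col-8 at 419 CPM per kb. These 10 held 69.7% to 77.3% of the family's summed CPM per kb in a library, and the first stood 3.68 times above the tenth. The median tested member stood at 4.93 CPM per kb, below the median of 9.00 CPM per kb over all tested genes. The collagen col-19, the standard reporter of the adult epidermis and a target of the timing factor LIN-29, held rank 13. In rank order, col-119 was above col-140 in all 9 libraries, col-140 above col-122 in 7, col-122 above col-181 in 9 and col-181 above col-106 in 9. Further down the neighbours changed places between libraries: col-106 was above col-20 in 6 of 9, col-20 above col-95 in 6, col-95 above col-184 in 6, col-184 above col-101 in 7 and col-101 above col-8 in 5.

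Differences between the groups in the most abundant collagens did not pass. The level of col-119 was 1636 ± 203 CPM per kb in control, 1622 ± 56.4 with nicotinic acid and 1371 ± 106 with MNA (SD, n = 3). Its log2 fold change was -0.04 (SE 0.09, adjusted p = 0.869 by edgeR) for nicotinic acid and -0.27 (SE 0.09, adjusted p = 0.107 by edgeR) for MNA, with 95% intervals of -0.24 to 0.16 and -0.47 to -0.07. In all MNA libraries col-119 was below every control, but the change did not pass. For col-140 the level was 1146 ± 137, 1173 ± 44.5 and 1010.4 ± 83.3 CPM per kb in the same order (SD, n = 3), and the 95% intervals were -0.20 to 0.20 and -0.40 to 0.00. Calls were rare among abundant genes in general: of all tested genes over 100 CPM, 0.348% rose and 1.78% fell with nicotinic acid. With MNA 0.435% of them rose and 1.7% fell, and between the compounds 0.261% were higher and 0.217% lower with nicotinic acid. None of the 10 collagens passed in any of the 3 comparisons with edgeR. At an unadjusted p under 0.05 there were 0 for nicotinic acid, 4 for MNA and 4 between the compounds, and DESeq2 called 0, 3 lower with MNA and 2 higher with nicotinic acid than with MNA. Exons of col-8 overlap those of lgc-38 on the opposite strand, and the strand setting of the counts is not stated. lgc-38 had a mean of 0.974 CPM in control and did not pass in any comparison. Summed over all 159 members, the family took 9945 ± 1152 CPM in control, 10688 ± 862 CPM with nicotinic acid and 9323 ± 654 CPM with MNA (SD, n = 3). The control libraries overlapped those of either compound, while every nicotinic acid library lay above every MNA library.

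**Figure D1:**
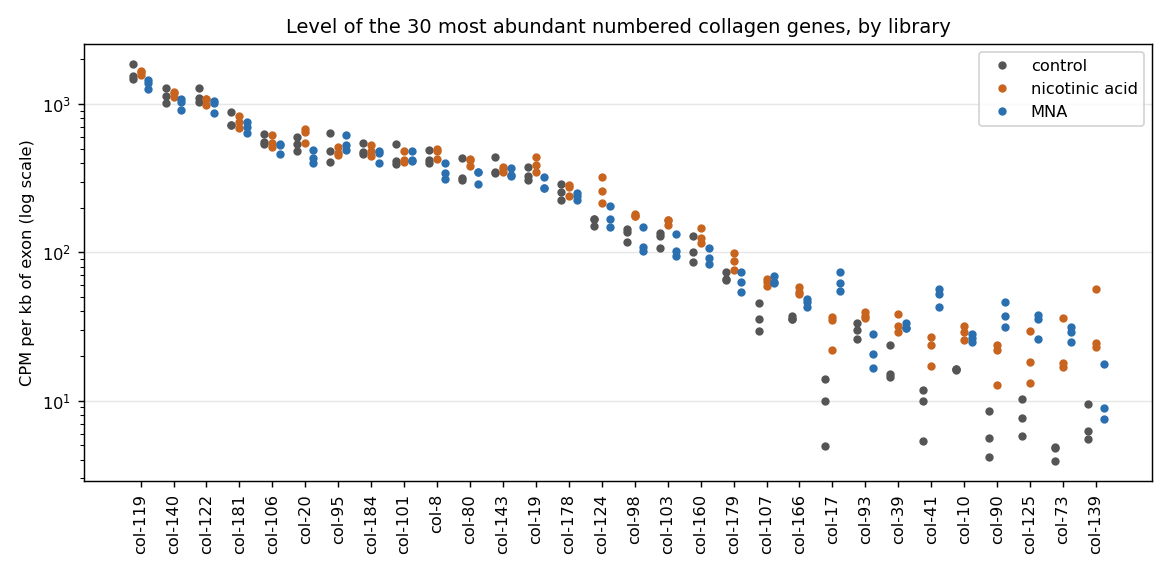
Level of the 30 most abundant numbered collagen genes in each of the 9 libraries, in CPM per kb of exon on a log axis, with 1 point per library coloured by group. Levels fall steeply from col-119, at 1543 CPM per kb over all libraries, and the points of the 3 groups lie together for the genes at the left and apart for several at the right, such as col-17 and col-73.

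At the other end, 64 members had a mean of up to 1 CPM. Named after their values were seen, 5 of these (col-36, col-126, col-127, col-171 and col-185) had no count in any library, which allows a level of up to 0.0129 CPM over all libraries together. The highest mean among the 47 members that were not tested was 0.266 CPM. They include genes for the cuticle of another stage: col-2, a collagen of the dauer cuticle, had 0.357, 0.163 and 0.45 CPM in the control libraries, 0.209, 0.162 and 0.288 CPM with nicotinic acid and 0.417, 0.107 and 0.216 CPM with MNA. The dauer collagen col-40 had 0, 0 and 0.113 CPM in the control libraries, 0.0348, 0.108 and 0.064 CPM with nicotinic acid and 0.0834, 0.0357 and 0.072 CPM with MNA. In counts, col-2 had 3 to 12 and col-40 had 0 to 3 in a library, and their exons overlap non-coding RNA genes. Of the adult-onset list, col-7 and col-62, which sit next to each other on chromosome I, had 1 count each in all libraries together, below the floor.

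With nicotinic acid, many collagens of middle and low level rose, led by col-49, col-138, col-133, col-162 and col-88, while the abundant ones mostly did not pass. Of the 112 tested members, 37 rose and 4 fell, against 1.94% and 3.4% of all tested genes, and 71 did not pass (edgeR). The median log2 fold change of the members was 0.86, against -0.000247 for all tested genes, and 94 of 112 lay above 0. Of the 37 rises, 27 were at least 2-fold. In 65 members all 3 nicotinic acid libraries lay above all 3 controls and in 7 below, against 12.7% and 9.01% of all tested genes. The biological coefficient of variation, edgeR's measure of the spread between replicates, had a median of 0.194 in the members and 0.0951 in all tested genes. Nicotinic acid replicate 1 was the highest of all 9 libraries in 53 of the 112 members, or 47.3%, against 20.2% of all tested genes, and in 26 of the 37 that rose. Control replicate 2 was the lowest in 41 members, or 36.6%, against 19.99% of all tested genes. Without control replicate 3 the model called 17 higher and 1 lower, without control replicate 1 it called 20 and 2, and without nicotinic acid replicate 1 it called 32 and 3. Of the 37 rises, 13 kept the call in all 9 fits that left out 1 library, and of the 4 falls 1 did.

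Among the 18 members over 100 CPM, 3 had an unadjusted p under 0.05 with nicotinic acid, and DESeq2 called 3 higher. With edgeR 1 rose and 0 fell, with a median log2 fold change of 0.01. The 1 was col-124, named after its values were seen, with 169, 189 and 187 CPM in the control libraries, 359, 289.7 and 240.1 CPM with nicotinic acid and 166.5, 186 and 228 CPM with MNA and a log2 fold change of 0.68 (SE 0.15, adjusted p = 0.0399 by edgeR). It was highest in nicotinic acid replicate 1, and the call was lost without any 1 control library, nicotinic acid replicate 1 or 2 or MNA replicate 2 (edgeR adjusted p up to 0.146). Of the 24 members from 10 to 100 CPM, 11 rose and 1 fell, with a median of 1.01. From 1 to 10 CPM, 21 of 53 rose and 3 fell, with a median of 1.12, and up to 1 CPM 4 of 17 rose. Among all tested genes the share that rose was 0.348% over 100 CPM, 1.36% from 10 to 100 CPM, 2.84% from 1 to 10 CPM and 3.18% up to 1 CPM. The share that fell was 1.78%, 4.38%, 4.11% and 1.34% in the same order. Without its 10 most abundant members, the family summed to 2316, 2655 and 2271 CPM in control, 3637, 3148 and 2840 CPM with nicotinic acid and 2478, 2692 and 2778 CPM with MNA. Every nicotinic acid library thus lay above every control, while MNA and control libraries overlapped. By chromosome, 13 of 24 tested members rose on V, 7 of 30 on IV, 7 of 21 on X, 5 of 12 on III, 3 of 13 on II and 2 of 12 on I. With MNA the order differed, with 9 of 21 on X, 8 of 30 on IV and 7 of 24 on V. On I and III it was 4 of 12 each, and on II 3 of 13. The share of all tested genes by chromosome is not given here.

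**Figure D2:**
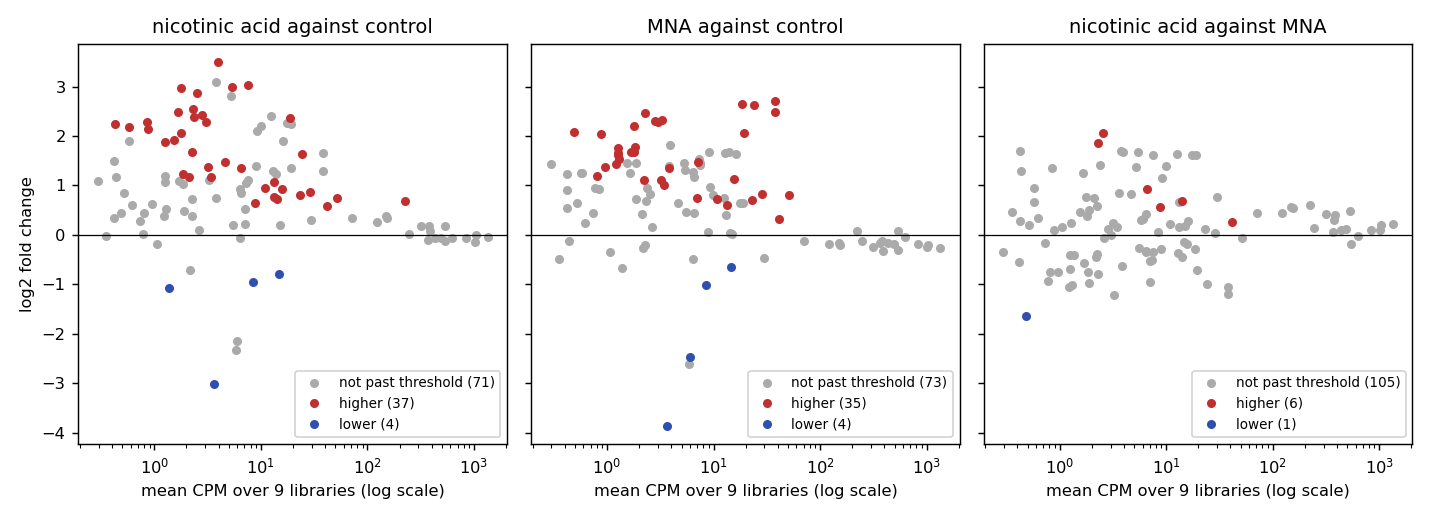
Log2 fold change of the 112 tested numbered collagen genes against their mean CPM over 9 libraries (log axis), 1 panel per comparison. Red and blue points passed the edgeR threshold as higher or lower and grey points did not. In both comparisons with control the members above 100 CPM lie close to 0, and the red points, 37 and 35 in number, lie among less abundant members except for col-124 with nicotinic acid.

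Collagens linked to the making of the adult cuticle at the last moult were among the largest rises. The gene col-49 (K09H9.3, chromosome I) had 0.535, 1.22 and 0.45 CPM in the control libraries, 16.1, 4.32 and 4.74 CPM with nicotinic acid and 2.58, 2.22 and 3.06 CPM with MNA. All nicotinic acid libraries lay above all others, with replicate 1 far above replicates 2 and 3, and the log2 fold change was 3.49 (SE 0.68, adjusted p = 0.0327 by edgeR). For col-138 (C52D10.13, chromosome IV) the values were 1.74, 2.72 and 1.16 CPM in the control libraries, 29.4, 8.76 and 8.7 CPM with nicotinic acid and 4.92, 4.61 and 5.62 CPM with MNA. Again all nicotinic acid libraries lay above all others, and the log2 fold change was 3.04 (SE 0.61, adjusted p = 0.0386 by edgeR). Without any 1 control or MNA library both calls were lost, with an edgeR adjusted p of up to 0.142 for col-49 and 0.152 for col-138. With nicotinic acid 1.94% of all tested genes rose and 3.4% fell. Of a list of 7 adult-onset collagens, 5 were tested, of which 2 rose and 0 fell, with a median of 2.82. The other 3 did not pass: col-63 was at 2.82 (SE 0.63, adjusted p = 0.0518 by edgeR), col-38 at 2.20 (SE 0.49, adjusted p = 0.0537 by edgeR) and col-19 at 0.18 (SE 0.10, adjusted p = 0.388 by edgeR) on the log2 scale. Per kb col-19 is the most abundant of the list, and it had 303, 353 and 288 CPM in the control libraries, 412, 359.5 and 323 CPM with nicotinic acid and 252, 254 and 299 CPM with MNA. Its nicotinic acid and control libraries overlapped, while every nicotinic acid library lay above every MNA library. The difference between the compounds in col-19 was 0.43 (SE 0.10, adjusted p = 0.0841 by edgeR) and did not pass.

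Several further rises were largest in nicotinic acid replicate 1. The gene col-133 (F52B11.4, chromosome IV) had 1.34, 1.55 and 1.31 CPM in the control libraries, 20.4, 5.41 and 8.03 CPM with nicotinic acid and 2.58, 3.18 and 4.82 CPM with MNA, with a log2 fold change of 3.00 (SE 0.55, adjusted p = 0.026 by edgeR) for nicotinic acid. The gene col-162 (Y2H9A.3, chromosome V) had 0.357, 0.488 and 0.338 CPM in the control libraries, 5.53, 1.78 and 2.02 CPM with nicotinic acid and 1.54, 2.22 and 1.76 CPM with MNA, with 2.96 (SE 0.50, adjusted p = 0.011 by edgeR). In both, no nicotinic acid library overlapped a control. The gene col-145 (B0222.7, chromosome V) had 0.446, 0.732 and 0.45 CPM in the control libraries, 5.53, 2.22 and 1.6 CPM with nicotinic acid and 1.33, 1.32 and 1.26 CPM with MNA, with 2.49 (SE 0.48, adjusted p = 0.0183 by edgeR). The gene col-73 (F11G11.12, chromosome II), the neighbour of col-17 and col-20, had 4.68, 3.82 and 4.8 CPM in the control libraries, 35.4, 17.7 and 16.6 CPM with nicotinic acid and 28.6, 30.99 and 24.4 CPM with MNA, with 2.37 (SE 0.32, adjusted p = 0.0103 by edgeR). The nicotinic acid libraries of both lay above the controls, and so did those of MNA. The gene col-156 (F57B7.3, chromosome V) had 0.758, 0.854 and 0.6003 CPM in the control libraries, 7.24, 2.76 and 2.02 CPM with nicotinic acid and 3.83, 4.33 and 2.92 CPM with MNA, with 2.42 (SE 0.52, adjusted p = 0.0339 by edgeR). Its exons overlap those of mig-17 on the opposite strand, which was at -0.42 and did not pass. All 5 calls depended on single libraries. That of col-133 was lost without any 1 control library (edgeR adjusted p up to 0.126), and those of col-162 and col-145 without control replicate 1 or 3 (edgeR adjusted p up to 0.0583 and 0.0874). That of col-73 was lost without control replicate 1 (edgeR adjusted p up to 0.0618), and that of col-156 without any 1 control library or MNA replicate 1 or 3 (edgeR adjusted p up to 0.142).

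Other rises held in every fit with a library left out. The gene col-88 (W05G11.3, chromosome III) had 0.49, 1.1 and 0.638 CPM in the control libraries, 8.7, 3.13 and 4.74 CPM with nicotinic acid and 1.0004, 1.32 and 1.66 CPM with MNA, with a log2 fold change of 2.87 (SE 0.42, adjusted p = 0.00679 by edgeR) for nicotinic acid. The gene col-60 (F22D6.10, chromosome I) had 0.357, 1.06 and 0.975 CPM in the control libraries, 7.72, 2.92 and 3.74 CPM with nicotinic acid and 1.38, 1.18 and 1.4 CPM with MNA, with 2.55 (SE 0.42, adjusted p = 0.0103 by edgeR). In both, all nicotinic acid libraries lay above all control and MNA libraries, and replicate 1 was again the highest. Smaller rises with little spread were those of col-10, one of the collagens named in longevity work, and of col-144, which lies in the same run of chromosome V and is named after its values were seen. The level of col-10 (B0222.8, chromosome V) was 15.7, 15.7 and 15.5 CPM in the control libraries, 28.1, 30.97 and 24.8 CPM with nicotinic acid and 27.4, 23.9 and 25.5 CPM with MNA, with 0.81 (SE 0.09, adjusted p = 0.000718 by edgeR) for nicotinic acid. The level of col-144 was 10.1, 9.19 and 8.67 CPM in the control libraries, 17.6, 16.1 and 14.6 CPM with nicotinic acid and 14.4, 14.5 and 14.1 CPM with MNA, with 0.77 (SE 0.10, adjusted p = 0.00177 by edgeR). The controls of each gene lay close together, and all libraries of both compounds lay above them. The same held for col-166 and col-167 on chromosome X. col-166 had 32.5, 32.3 and 33.6 CPM in the control libraries, 49.3, 52.97 and 47.2 CPM with nicotinic acid and 41.8, 38.5 and 44.1 CPM with MNA, with 0.58 (SE 0.06, adjusted p = 0.000478 by edgeR) for nicotinic acid. col-167 had 6.6, 7.2 and 7.2 CPM in the control libraries, 13.3, 15.5 and 12.5 CPM with nicotinic acid and 10.8, 11.2 and 13.1 CPM with MNA, with 0.94 (SE 0.11, adjusted p = 0.00119 by edgeR). The 16 rises outside the rule for named genes, with col-124 and col-144 among them, ranged from 0.68 to 2.28 on the log2 scale.

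The other longevity-linked collagens had lower levels. The gene col-120 (Y11D7A.11, chromosome IV) had 0.802, 0.935 and 0.863 CPM in the control libraries, 8.14, 2.54 and 2.94 CPM with nicotinic acid and 1.5, 1.72 and 1.87 CPM with MNA. It rose with nicotinic acid by 2.37 (SE 0.44, adjusted p = 0.0175 by edgeR) on the log2 scale, with replicate 1 far above the others, and did not pass with MNA, at 0.95 (SE 0.49, adjusted p = 0.34 by edgeR). Without any 1 control library, the call of col-120 was lost, with an edgeR adjusted p of up to 0.0887. col-13 and col-12 lie side by side on chromosome V and are known as near-identical copies. How reads shared by such copies were counted is not stated, so the values of each are uncertain. col-12 had 0.624, 0.325 and 0.863 CPM in the control libraries, 4.14, 1.35 and 1.47 CPM with nicotinic acid and 1.83, 1.86 and 1.37 CPM with MNA, with 1.93 (SE 0.48, adjusted p = 0.0482 by edgeR) for nicotinic acid and 1.45 (SE 0.50, adjusted p = 0.13 by edgeR) for MNA. col-13 had 0.223, 0.122 and 0.263 CPM in the control libraries, 0.835, 0.432 and 0.48 CPM with nicotinic acid and 0.333, 0.643 and 0.468 CPM with MNA, with 1.502 (SE 0.44, adjusted p = 0.0665 by edgeR) and 1.23 (SE 0.45, adjusted p = 0.138 by edgeR). In both genes the libraries of either compound lay above the controls, and the change that passed was that of col-12 with nicotinic acid. Without any 1 control library, nicotinic acid replicate 1 or any 1 MNA library, the call of col-12 was lost, with an edgeR adjusted p of up to 0.156.

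With MNA, a similar number of members rose, led by col-17, col-73, col-90, col-41 and col-173, and the abundant ones again did not pass. Of the 112 members, 35 rose and 4 fell, against 3.63% and 3.78% of all tested genes, and 73 did not pass (edgeR). This comparison shares its controls with the one above, so a low or high control enters both. The median log2 fold change was 0.81, against -0.00273 for all tested genes, and 82 of 112 lay above 0. Of the 35 rises, 28 were at least 2-fold. In 65 members every MNA library lay above every control and in 10 below, against 13.9% and 9.97% of all tested genes. Without MNA replicate 2 the model called 18 higher and 2 lower, and without MNA replicate 1 it called 20 and 3. It called 53 and 4 when nicotinic acid replicate 1, which enters the estimate of the spread, was left out. In all 9 such fits, 17 of the 35 rises and 2 of the 4 falls kept the call. Over 100 CPM, 0 of 18 members passed with edgeR, with a median of -0.17, while 5 had an unadjusted p under 0.05 and DESeq2 called 3 lower. From 10 to 100 CPM 12 of 24 rose and 1 fell, from 1 to 10 CPM 19 of 53 rose and 3 fell, and up to 1 CPM 4 of 17 rose. Of all tested genes over 100 CPM, 0.435% rose and 1.7% fell. In the other bands 3.2%, 5.87% and 3.46% of all tested genes rose and 4.6%, 4.76% and 2.03% fell, in the same order.

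The largest rise among the named members was that of a larval collagen gene, col-17, which LIN-29 is known to repress in the adult. The gene col-17 (F11G11.10, chromosome II) had 10.9, 5.41 and 15.4 CPM in the control libraries, 38.3, 39.997 and 24.1 CPM with nicotinic acid and 68.1, 80.9 and 59.7 CPM with MNA. The 3 groups did not overlap, with MNA highest and control lowest. The log2 fold change was 2.71 (SE 0.36, adjusted p = 0.00842 by edgeR) for MNA, and nicotinic acid did not pass, at 1.66 (SE 0.37, adjusted p = 0.0542 by edgeR). The gene col-41 (T10B10.1, chromosome X), a target of the BMP-like ligand DBL-1 that sets body size, had 13.7, 7.36 and 16.2 CPM in the control libraries, 32.9, 37.2 and 23.6 CPM with nicotinic acid and 72.1, 78.7 and 58.8 CPM with MNA. Again the groups stood apart in that order, and the log2 fold change was 2.49 (SE 0.29, adjusted p = 0.00456 by edgeR) for MNA and 1.30 (SE 0.30, adjusted p = 0.0568 by edgeR) for nicotinic acid, which did not pass. The gene col-90 (C29E4.1, chromosome III) had 6.37, 4.72 and 9.68 CPM in the control libraries, 26.96, 24.8 and 14.4 CPM with nicotinic acid and 41.97, 52.2 and 35.5 CPM with MNA, also with the groups apart in that order. It rose with both, by 2.63 (SE 0.33, adjusted p = 0.00564 by edgeR) with MNA and 1.63 (SE 0.34, adjusted p = 0.03995 by edgeR) with nicotinic acid. The second call was lost without any 1 control library, nicotinic acid replicate 1 or 2 or MNA replicate 1 or 3 (edgeR adjusted p up to 0.158). Exons of col-90 overlap those of let-754 on the opposite strand, which was at 0.08 for MNA and did not pass. With MNA, col-17, col-41 and col-90 kept the call in all 9 fits.

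The other large rises with MNA came with lower levels. The gene col-54 (F33D11.3, chromosome I) had 1.43, 0.447 and 1.69 CPM in the control libraries, 3.62, 2.11 and 2.02 CPM with nicotinic acid and 6.34, 6.9 and 4.82 CPM with MNA, with a log2 fold change of 2.33 (SE 0.36, adjusted p = 0.00463 by edgeR) for MNA. The gene col-173 (F41C6.5, chromosome X) had 0.847, 0.61 and 0.638 CPM in the control libraries, 2.82, 2.22 and 1.76 CPM with nicotinic acid and 4.34, 3.97 and 3.28 CPM with MNA, with 2.45 (SE 0.24, adjusted p = 0.000173 by edgeR). In both, every MNA library was above every other library. The gene col-180 (C44C10.1, chromosome X) had 0.891, 0.813 and 0.825 CPM in the control libraries, 6.92, 3.03 and 2.46 CPM with nicotinic acid and 4.71, 4.11 and 3.56 CPM with MNA, with 2.27 (SE 0.40, adjusted p = 0.00804 by edgeR) for MNA and 2.28 (SE 0.40, adjusted p = 0.0128 by edgeR) for nicotinic acid. The second of these calls was lost without control replicate 1 or 3 (edgeR adjusted p up to 0.0632). The gene col-73 was at 2.65 (SE 0.32, adjusted p = 0.00397 by edgeR) for MNA, with the values given above. The controls of both lay below all libraries of either compound, and with col-54 and col-173 they kept the call for MNA in all 9 fits. The rises of col-156 by 2.31 (SE 0.53, adjusted p = 0.032 by edgeR) and of col-162 by 2.20 (SE 0.52, adjusted p = 0.0306 by edgeR) were lost without any 1 control or MNA library, with an edgeR adjusted p of up to 0.142 and 0.125. The gene col-125 (C29F4.1, chromosome IV) had 9.67, 5.41 and 7.2 CPM in the control libraries, 27.97, 17.1 and 12.5 CPM with nicotinic acid and 33.3, 35.6 and 24.3 CPM with MNA, with 2.06 (SE 0.35, adjusted p = 0.0161 by edgeR) for MNA, a call lost without control replicate 2 or 3 or MNA replicate 1 or 2 (edgeR adjusted p up to 0.0738). Its exons overlap those of best-7 on the opposite strand, which was at 0.17 and did not pass. The 21 rises with MNA outside the rule for named genes ranged from 0.61 to 2.08 on the log2 scale.

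Of the larval and dauer list, 2 members were tested, col-17 and col-39, and both rose with MNA while 1, col-39, rose with nicotinic acid. The shares of all tested genes that rose were 3.63% with MNA and 1.94% with nicotinic acid. col-39 had 24.6, 15.01 and 15.8 CPM in the control libraries, 39.6, 32.97 and 30.1 CPM with nicotinic acid and 34.8, 32.2 and 32.3 CPM with MNA, and both compounds lay above every control. Its log2 fold change was 0.83 (SE 0.18, adjusted p = 0.0249 by edgeR) for MNA and 0.87 (SE 0.18, adjusted p = 0.0282 by edgeR) for nicotinic acid. The call with MNA was lost without control replicate 2 or 3 or any 1 MNA library (edgeR adjusted p up to 0.0923), and that with nicotinic acid without control replicate 2 or 3, nicotinic acid replicate 1 or 2 or MNA replicate 2 or 3 (edgeR adjusted p up to 0.0896). The rises with little spread were seen with MNA too, in all 9 fits: col-10 was at 0.70 (SE 0.09, adjusted p = 0.000731 by edgeR), col-144 at 0.61 (SE 0.10, adjusted p = 0.00305 by edgeR), col-166 at 0.33 (SE 0.06, adjusted p = 0.00492 by edgeR) and col-167 at 0.73 (SE 0.11, adjusted p = 0.00209 by edgeR) on the log2 scale. Of the 5 tested adult-onset collagens 0 passed with MNA (edgeR), with a median of 1.42, while 2 had an unadjusted p under 0.05 and DESeq2 called 0. Their log2 fold changes were 1.81 (SE 0.74, adjusted p = 0.245 by edgeR) for col-49, 1.45 (SE 0.66, adjusted p = 0.304 by edgeR) for col-63, 1.42 (SE 0.65, adjusted p = 0.306 by edgeR) for col-138, 0.81 (SE 0.51, adjusted p = 0.483 by edgeR) for col-38 and -0.25 (SE 0.10, adjusted p = 0.231 by edgeR) for col-19. In all of these but col-19 every MNA library lay above every control, and the 95% intervals were wide, such as 0.06 to 3.56 for col-49.

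**Figure D3:**
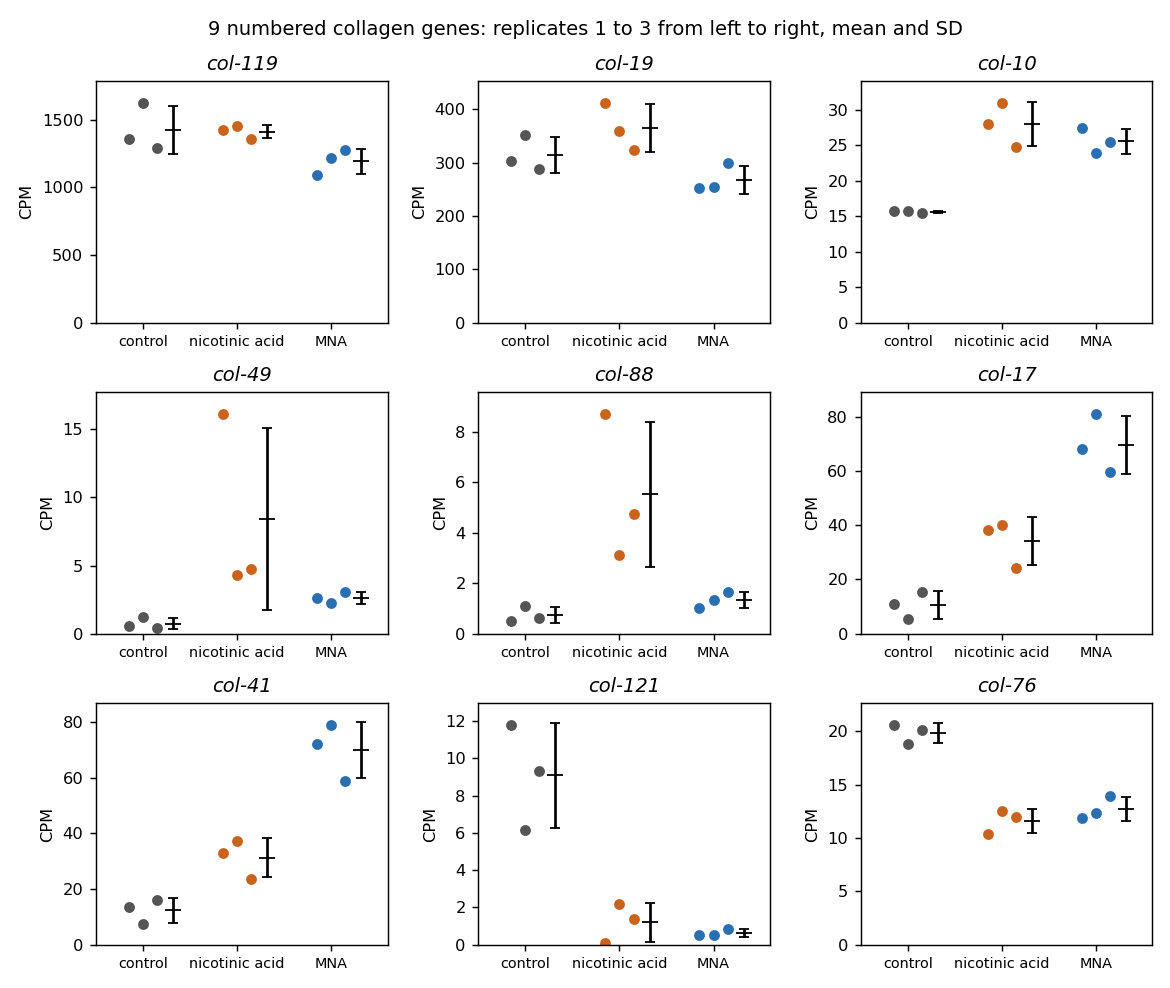
CPM of 9 numbered collagen genes in each library on linear axes from 0, with replicates 1 to 3 from left to right in each group and the group mean and SD (n = 3) at the right. The abundant col-119 and col-19 passed in no comparison, but every nicotinic acid library lies above every MNA library in both. The level of col-10 is lowest in control, and col-49 and col-88 are highest in nicotinic acid replicate 1. The genes col-17 and col-41 are highest with MNA, and col-121 and col-76 are highest in control.

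Few members fell, 4 of 112 or 3.57% with each compound. This was close to the share of all tested genes, 3.4% with nicotinic acid and 3.78% with MNA. The members that fell with nicotinic acid were col-121, col-76, col-99 and col-116, and with MNA col-121, col-76, col-99 and col-74. The gene col-121 (F56D5.1, chromosome IV) had 11.8, 6.14 and 9.34 CPM in the control libraries, 0.104, 2.16 and 1.38 CPM with nicotinic acid and 0.5002, 0.5004 and 0.864 CPM with MNA. Control libraries lay above all others, and the log2 fold change was -3.01 (SE 0.61, adjusted p = 0.0345 by edgeR) for nicotinic acid and -3.86 (SE 0.66, adjusted p = 0.0144 by edgeR) for MNA. The first call was lost without control replicate 1 or 3, nicotinic acid replicate 3 or any 1 MNA library (edgeR adjusted p up to 0.117) and the second without control replicate 3 or MNA replicate 1 or 2 (edgeR adjusted p up to 0.0858). Exons of col-121 overlap those of daf-15 on the opposite strand, which was at -0.07 in both comparisons and did not pass. The gene col-76 (M110.1, chromosome II) had 20.5, 18.7 and 20.1 CPM in the control libraries, 10.4, 12.5 and 12.001 CPM with nicotinic acid and 11.9, 12.3 and 13.97 CPM with MNA. It fell by less but with little spread, at -0.80 (SE 0.09, adjusted p = 0.00119 by edgeR) for nicotinic acid and -0.65 (SE 0.09, adjusted p = 0.00142 by edgeR) for MNA, and kept both calls in all 9 fits. The gene col-99 (F29C4.8, chromosome IV), which encodes a relative of the transmembrane collagens of mammals and not a typical cuticle collagen, had 13.7, 9.88 and 13.7 CPM in the control libraries, 4.63, 6.92 and 8.1 CPM with nicotinic acid and 5.54, 6.47 and 6.66 CPM with MNA. Its controls lay above all other libraries, and the log2 fold change was -0.94 (SE 0.19, adjusted p = 0.017 by edgeR) for nicotinic acid, lost without control replicate 1 or 3 (edgeR adjusted p up to 0.0668), and -1.01 (SE 0.19, adjusted p = 0.00867 by edgeR) for MNA, kept in all 9 fits. The overlapping gene daf-1 on the opposite strand was at -0.04 and 0.10 and did not pass.

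The other falls were those of col-116 with nicotinic acid and col-74 with MNA, and the difference between the compounds passed for neither of them. The gene col-116 (F17E9.1, chromosome IV) had 1.83, 1.91 and 2.06 CPM in the control libraries, 0.696, 1.19 and 0.96 CPM with nicotinic acid and 1.17, 1.36 and 1.15 CPM with MNA, with -1.08 (SE 0.23, adjusted p = 0.0177 by edgeR) for nicotinic acid and -0.67 (SE 0.22, adjusted p = 0.0905 by edgeR) for MNA. F17E9.2 overlaps it on the same strand and was at -0.62 for nicotinic acid without passing, and how reads of both were counted is not stated. The gene col-74 (ZK1248.2, chromosome II) had 18.9, 6.95 and 12.3 CPM in the control libraries, 2.43, 4.22 and 2.34 CPM with nicotinic acid and 3.71, 1.001 and 2.34 CPM with MNA, with -2.46 (SE 0.51, adjusted p = 0.0315 by edgeR) for MNA and -2.14 (SE 0.50, adjusted p = 0.0576 by edgeR) for nicotinic acid. The overlapping gene gtap-1 on the opposite strand was at -0.03 for MNA and did not pass. The fall of col-116 with nicotinic acid was lost without control replicate 3 or nicotinic acid replicate 1 (edgeR adjusted p up to 0.0623), and that of col-74 with MNA without control replicate 1 or 3, nicotinic acid replicate 3 or MNA replicate 2 or 3 (edgeR adjusted p up to 0.0982). Control libraries lay above all others in both genes. They did so too in col-165, named after its values were seen, which had 20.1, 6.06 and 11.9 CPM in the control libraries, 1.39, 4.49 and 2.21 CPM with nicotinic acid and 3.83, 0.786 and 1.73 CPM with MNA and did not pass, at -2.32 (SE 0.68, adjusted p = 0.124 by edgeR) and -2.61 (SE 0.70, adjusted p = 0.0816 by edgeR).

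Among markers of embryos, which adult hermaphrodites carry, hch-1 and ceh-27 were also higher in every control library than in all others, while tbx-38 rose with MNA. The 10 markers summed to 45.3 to 64.4 CPM in control, 19.1 to 29.9 CPM with nicotinic acid and 22.3 to 25.8 CPM with MNA, and none was at 0 in all libraries. Of 8 tested, 1 fell and 0 rose with nicotinic acid, and 2 fell and 1 rose with MNA. The shares of all tested genes were 3.4% and 1.94% with nicotinic acid and 3.78% and 3.63% with MNA. The hatching protease gene hch-1 made up most of the sum in control, with 40.3, 26.2 and 27.8 CPM, against 1.25, 9.68 and 6.11 CPM with nicotinic acid and 4.34, 2.47 and 5.08 CPM with MNA. Its log2 fold change was -2.55 (SE 0.60, adjusted p = 0.0655 by edgeR) and -3.01 (SE 0.62, adjusted p = 0.0343 by edgeR). Without hch-1 the other 9 markers summed to 19.2 to 24.1 CPM in control, 16.9 to 20.2 CPM with nicotinic acid and 19.8 to 21.5 CPM with MNA, so that the groups overlapped. In each comparison with control 4 of the 8 tested lay above 0. The homeobox gene ceh-27 was at -0.96 (SE 0.20, adjusted p = 0.017 by edgeR) and -0.97 (SE 0.20, adjusted p = 0.0109 by edgeR), and the T-box gene tbx-38 at 1.09 (SE 0.28, adjusted p = 0.0335 by edgeR) with MNA. The call of hch-1 with MNA was lost without any 1 control library, nicotinic acid replicate 3 or any 1 MNA library (edgeR adjusted p up to 0.142). For nicotinic acid, ceh-27 no longer passed when control replicate 1, control replicate 3 or nicotinic acid replicate 1 was left out, with an edgeR adjusted p of up to 0.0623. For MNA it was lost without MNA replicate 1 or 2 (edgeR adjusted p up to 0.0608). The call of tbx-38 was lost without control replicate 1 or 3 or any 1 MNA library (edgeR adjusted p up to 0.149). The part of embryos in the collagen values was not tested.

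Between the compounds, whose doses differ, few members passed. Of the 112, 6 were higher with nicotinic acid, 1 was higher with MNA and 105 did not pass, against 0.315% and 1.1% of all tested genes (edgeR). The median log2 fold change of nicotinic acid against MNA was 0.18, against 0.00264 for all tested genes. In 39 members every nicotinic acid library lay above every MNA library and in 16 below, against 8.88% and 9.44% of all tested genes. None of the 7 calls held in all 9 fits that left out 1 library. Without either of MNA replicates 1 and 2 the model called 0 in either direction, and without MNA replicate 3 it called 10 higher and 5 lower. It called 3 higher and 2 lower without nicotinic acid replicate 1, 2 and 0 without nicotinic acid replicate 2, and 3 and 0 without nicotinic acid replicate 3. Without control replicate 2 it called 6 and 3, and without control replicate 3 4 and 0. An unadjusted p under 0.05 was reached by 55 of the 112 members, against 1897 of the 13985 tested genes. DESeq2 called 21 members higher and 3 lower, and its share over all tested genes is not given here. Of the 18 members over 100 CPM, 9 had an unadjusted p under 0.05, and DESeq2 called 6 higher with nicotinic acid.

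The largest differences were in col-88, at 2.05 (SE 0.38, adjusted p = 0.0297 by edgeR), and col-60, at 1.87 (SE 0.39, adjusted p = 0.0487 by edgeR), with the values given above. The gene col-176 (ZC373.7, chromosome X) had 3.61, 5.002 and 3.23 CPM in the control libraries, 10.5, 9.13 and 11.2 CPM with nicotinic acid and 4.88, 4.4 and 6.98 CPM with MNA, with 0.92 (SE 0.19, adjusted p = 0.0335 by edgeR) between the compounds. The gene col-147 (T06E4.4, chromosome V) had 11.01, 10.7 and 12.5 CPM in the control libraries, 17.98, 18.8 and 20.96 CPM with nicotinic acid and 11.8, 9.33 and 14.6 CPM with MNA, with 0.69 (SE 0.13, adjusted p = 0.0175 by edgeR). The gene col-94 (W05B2.1, chromosome III) had 7.58, 7.48 and 6.6 CPM in the control libraries, 10.2, 13.7 and 10.6 CPM with nicotinic acid and 7.63, 7.43 and 7.81 CPM with MNA, with 0.57 (SE 0.13, adjusted p = 0.045 by edgeR). In these 5 genes every nicotinic acid library lay above all others. MNA and control libraries overlapped in 4 of them, and in col-60 those of MNA lay above control. Exons of col-147 overlap those of T06E4.5 on the opposite strand, which had a mean of 0.697 CPM with nicotinic acid and 0.367 CPM with MNA and did not pass. The smallest difference that passed was that of col-166, at 0.25 (SE 0.06, adjusted p = 0.0482 by edgeR). The gene higher with MNA was col-33, named after its values were seen because its mean is under 1 CPM. It had 0.267, 0.122 and 0.263 CPM in the control libraries, 0.313, 0.216 and 0.352 CPM with nicotinic acid and 1.0004, 1.14 and 0.684 CPM with MNA, which stands for 3 to 11 counts in a library outside MNA. Its log2 fold change was -1.63 (SE 0.35, adjusted p = 0.04003 by edgeR) between the compounds and 2.08 (SE 0.38, adjusted p = 0.00564 by edgeR) for MNA against control, the second kept in all 9 fits. It had enough counts to be tested only through its MNA libraries, so both calls are partly set by which genes were tested.

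For col-17, col-41, col-49 and col-138 the difference between the compounds did not pass, and the intervals were wide. In col-17 it was -1.05 (SE 0.33, adjusted p = 0.226 by edgeR), with a 95% interval of -1.84 to -0.27. In col-41 it was -1.19 (SE 0.27, adjusted p = 0.113 by edgeR), with -1.83 to -0.55. In both, every MNA library lay above every nicotinic acid library. In col-49 the difference was 1.68 (SE 0.56, adjusted p = 0.248 by edgeR), with 0.36 to 3.00, and every nicotinic acid library lay above every MNA library. In col-138 it was 1.62 (SE 0.54, adjusted p = 0.249 by edgeR), with 0.35 to 2.90 and the same order. Such intervals do not show that the compounds act alike. The 95% interval was narrower in col-10, at -0.07 to 0.29, and in col-39, at -0.36 to 0.43.

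**Figure D4:**
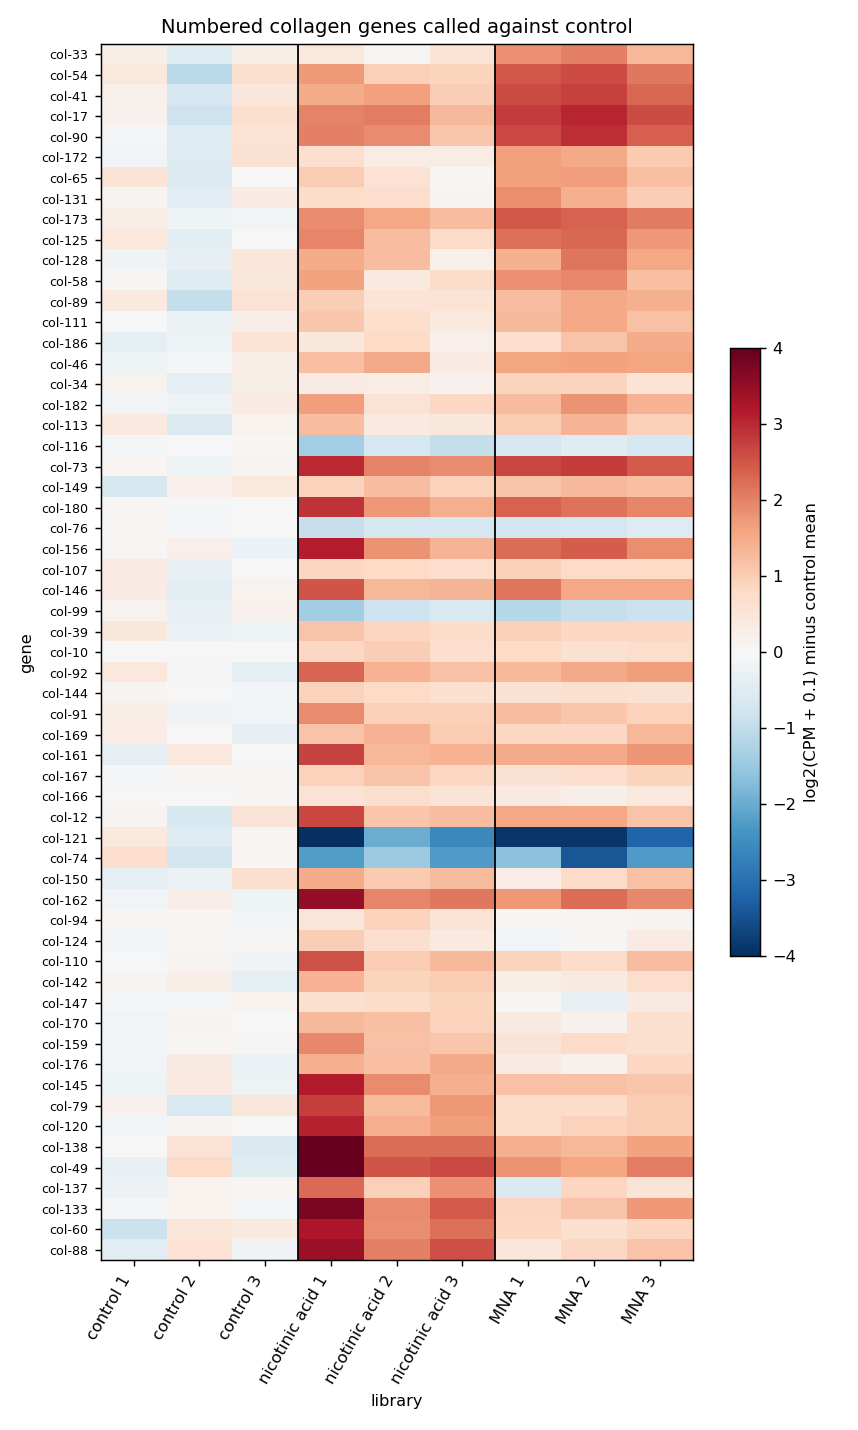
Heat map of the 59 numbered collagen genes called against control with either compound, 1 row per gene and 1 column per library, ordered by the difference of the nicotinic acid and MNA means. Colour is log2(CPM + 0.1) minus the mean of the control libraries, from -4 (blue) to 4 (red). Genes at the bottom, such as col-88, col-60, col-133 and col-49, are reddest in nicotinic acid replicate 1, those at the top, such as col-17, col-41, col-54 and col-33, are reddest with MNA, and the blue rows are the genes that fell.

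Markers of sperm were highest in the library in which many collagens were highest. The 15 genes summed to 11.5 to 12.4 CPM in control, 19.7 to 36.7 CPM with nicotinic acid, highest in replicate 1, and 13.8 to 15.7 CPM with MNA, and msp-10 was at 0 in every library. Most of the sum in control was spe-15, with a mean of 9.2 CPM there, 12.8 CPM with nicotinic acid and 10.6 CPM with MNA. Of 7 tested, 6 rose with nicotinic acid, among them ssq-2 at 3.07 (SE 0.51, adjusted p = 0.012 by edgeR) on the log2 scale, a call lost without control replicate 1 or 3 (edgeR adjusted p up to 0.0624). None of the 6 calls held in all 9 fits. Outside the nicotinic acid libraries spe-11, ssq-4 and gsp-4 had at most 0.292, 0.286 and 0.324 CPM. They had enough counts to be tested only through the nicotinic acid libraries, so the 6 of 7 is partly set by which genes were tested. Of all tested genes, 1.94% rose with nicotinic acid and 3.63% with MNA. With MNA 0 passed with edgeR, at an unadjusted p under 0.05 and with DESeq2. Of 10 muscle markers, 2 rose with nicotinic acid, mlc-1 at 0.39 (SE 0.08, adjusted p = 0.0173 by edgeR) and mup-2 at 0.35 (SE 0.08, adjusted p = 0.0258 by edgeR), and 0 passed with MNA by the same 3 counts. The first was lost without control replicate 1 (edgeR adjusted p up to 0.0706) and the second without any 1 control library or nicotinic acid replicate 2 or 3 (edgeR adjusted p up to 0.0873). The muscle markers summed to 3124 to 3583 CPM in control, 3615 to 4246 CPM with nicotinic acid and 3133 to 3818 CPM with MNA. The part of these cell types in the collagen values was not tested. Markers of the epidermis, the tissue that makes the cuticle, summed to 959 to 1062 CPM in control, 862 to 1200.1 CPM with nicotinic acid and 915 to 958 CPM with MNA. Of 11 tested, 1 rose with MNA, the glycosyltransferase gene bus-8 at 1.20 (SE 0.25, adjusted p = 0.0183 by edgeR), lost without control replicate 3 or MNA replicate 1 or 2 (edgeR adjusted p up to 0.077). With nicotinic acid 0 passed, 3 had an unadjusted p under 0.05 and DESeq2 called 1 higher.

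Named cuticle collagens, many of which shape the body, also rose in part. Of 21 tested, 13 rose and 2 fell with nicotinic acid, and 10 rose and 2 fell with MNA, with medians of 1.61 and 1.65 on the log2 scale. The shares of all tested genes were 1.94% and 3.4% with nicotinic acid and 3.63% and 3.78% with MNA. All 10 rises with MNA and 3 of the 13 with nicotinic acid (dpy-8, dpy-9 and lon-3) held in all 9 fits, and none of the falls did. The others that rose with nicotinic acid were dpy-4, dpy-5, dpy-13, sqt-1, sqt-2, rol-1, rol-6, rol-8, bli-1 and bli-6, and those that rose with MNA were dpy-4, dpy-5, dpy-8, dpy-9, dpy-13, lon-3, sqt-1, sqt-2, rol-6 and rol-8. The gene dpy-4 had 18.1, 12.3 and 22.2 CPM in control, 76.7, 62.7 and 41.8 CPM with nicotinic acid and 101, 118 and 85.7 CPM with MNA, the order of groups seen in col-17. It was at 1.76 (SE 0.30, adjusted p = 0.0239 by edgeR) with nicotinic acid and 2.53 (SE 0.30, adjusted p = 0.00492 by edgeR) with MNA, the first lost without any 1 control library or nicotinic acid replicate 1 or 2 (edgeR adjusted p up to 0.0939). The blister collagen gene bli-1 had 0.669, 0.976 and 0.563 CPM in control, 11.3, 3.46 and 3.23 CPM with nicotinic acid and 2.13, 1.57 and 3.35 CPM with MNA, with nicotinic acid replicate 1 far above the rest and both compounds above control. It was at 3.01 (SE 0.63, adjusted p = 0.0356 by edgeR), lost without any 1 control library or any 1 MNA library (edgeR adjusted p up to 0.158), and did not pass with MNA, at 1.65 (SE 0.68, adjusted p = 0.237 by edgeR). The falls were those of dpy-14, at -2.56 (SE 0.52, adjusted p = 0.0462 by edgeR) and -2.84 (SE 0.53, adjusted p = 0.0268 by edgeR), and of dpy-17, at -2.42 (SE 0.46, adjusted p = 0.0372 by edgeR) and -2.82 (SE 0.47, adjusted p = 0.0188 by edgeR), with the controls above all other libraries, as in col-121. All 4 calls were lost without control replicate 1 or 3, among others. Between the compounds 0 passed with edgeR and with DESeq2, while 13 had an unadjusted p under 0.05. The 3 collagen genes of the basement membrane, a sheet beneath the epidermis and other tissues, did not pass against control, with medians of -0.03 and -0.08. For nicotinic acid and MNA, 0 and 1 had an unadjusted p under 0.05 and DESeq2 called 0.

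Genes that act on collagen chains after transcription differed little. Of 18 tested genes for folding, processing and crosslinking, 0 passed against control with either compound, with medians of -0.03 and 0.02. For each compound 2 had an unadjusted p under 0.05, and DESeq2 called 0. Between the compounds dpy-18, a subunit of the prolyl 4-hydroxylase that modifies collagen chains, was lower with nicotinic acid, with 38.1 ± 4.37 against 52.8 ± 4.42 CPM (SD, n = 3) and a log2 fold change of -0.49 (SE 0.09, adjusted p = 0.0171 by edgeR), lost without nicotinic acid replicate 1 or 3 or MNA replicate 1 or 2 (edgeR adjusted p up to 0.116). Of all tested genes 1.1% were lower with nicotinic acid than with MNA. Of 21 tested regulators of epidermal fate and timing, 1 fell with nicotinic acid, against 3.4% of all tested genes. This was the GATA factor gene elt-1, at -0.36 (SE 0.10, adjusted p = 0.0473 by edgeR). The call was lost in 8 of the 9 fits, all but that without nicotinic acid replicate 2. With MNA 1 rose, the period-related timing gene lin-42, at 1.04 (SE 0.20, adjusted p = 0.017 by edgeR), lost without control replicate 1 or MNA replicate 1 or 2 (edgeR adjusted p up to 0.0805). The gene lin-29, the regulator of the larval-to-adult switch, did not pass, at 0.58 (SE 0.18, adjusted p = 0.0787 by edgeR) with nicotinic acid and 0.45 (SE 0.18, adjusted p = 0.167 by edgeR) with MNA. For nicotinic acid 6 of the 21 regulators had an unadjusted p under 0.05, and DESeq2 called 1 lower. For MNA 8 of them did, and DESeq2 called 1 higher and 1 lower. Of 11 moult genes, 3 rose with MNA: mlt-10 at 0.73 (SE 0.10, adjusted p = 0.00139 by edgeR), the protease gene nas-36 at 1.25 (SE 0.26, adjusted p = 0.0106 by edgeR) and the hedgehog-related gene qua-1 at 1.51 (SE 0.26, adjusted p = 0.0126 by edgeR), the last lost without MNA replicate 2 (edgeR adjusted p up to 0.0558). Of all tested genes, 3.63% rose with MNA. The list did not move as 1 with MNA: 6 of the 11 lay above 0, with a median of 0.07. The lowest was fbn-1, at -1.24 (SE 0.29, adjusted p = 0.0568 by edgeR), which did not pass. For MNA 7 had an unadjusted p under 0.05, and DESeq2 called 4 higher and 1 lower. With nicotinic acid 0 passed with edgeR, 6 had an unadjusted p under 0.05, and DESeq2 called 1 higher and 3 lower. The moult genes summed to 513 to 776 CPM in control, 369 to 562 CPM with nicotinic acid and 458 to 516 CPM with MNA.

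**Figure D5:**
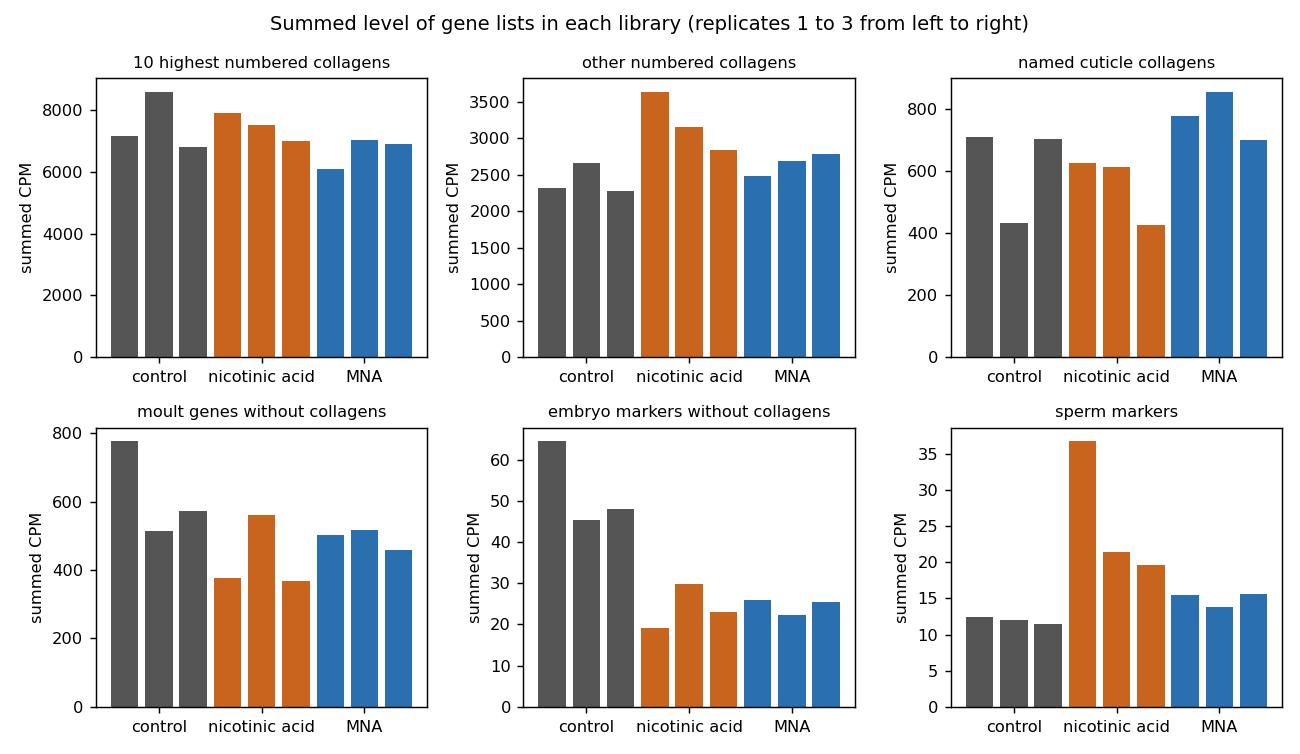
Summed CPM of 6 gene lists in each library, as bars from 0, with replicates 1 to 3 from left to right in each group. The 10 most abundant numbered collagens sum to 6090 to 8601 CPM with no separation of groups, the other numbered collagens are higher in every nicotinic acid library than in control, the sum of embryo markers is highest in control, where hch-1 makes up most of it, and sperm markers are highest in nicotinic acid replicate 1.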

How the data were processed

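RNA sequencing libraries were made with the TruSeq kit from total RNA of whole worms, per the labels' protocols. The submitters' processing notes name CASAVA, TopHat 1.4.1 and HTSeq, while for genome build, annotation and strand setting the sources used here give nothing. The authors deposited whole-number read counts per gene, with 1 column per library, and all tests used these counts. They also deposited RPKM values, whose implied gene lengths did not match the annotation, so the ranking by level uses CPM per kb of the exon union in WBcel235 (matched for all 159 members) and not the deposited RPKM. In R 4.3.3, edgeR 4.0.16 (with limma 3.58.1) fitted the quasi-likelihood model with TMM factors to the 13985 genes that passed filterByExpr with a minimum count of 10, with group as the only term. The 95% intervals cover the spread in that model. The script was tested on simulated data. The members, the gene lists and the rule for named genes were chosen with earlier results of these data known. The rule takes, per comparison and direction, up to 10 members with the largest change and a mean of at least 1 CPM, the 10 highest levels, a set of known collagens, and list genes past the threshold. Alternatives were the replicate number as a block, RLE factors, no filter, DESeq2 1.42.0, the libraries of the 2 compared groups alone and leaving out each library. Protein and promoter sequences were not used here, and the part of the rule on near-identical proteins was not applied.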

Additional observations from a re-analysis of the deposited data

How the results depend on the processing

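The counts of collagens that rose moved with the choice of libraries and of tool, and no result changed sign under any alternative. When 1 library was left out, from 17 to 40 members were called higher and 1 to 5 lower with nicotinic acid, 18 to 53 higher and 2 to 6 lower with MNA, and 0 to 10 higher and 0 to 5 lower between the compounds. DESeq2 called 55 higher and 6 lower with nicotinic acid and 44 higher and 9 lower with MNA. Between the compounds it called 21 higher and 3 lower. The shares of all tested genes called under the alternatives are not given here. With the 6 libraries compared alone, 25 members were higher and 2 lower with nicotinic acid, and 50 were higher and 3 lower with MNA. Between the compounds 6 were higher and 2 lower. Without the filter 6 were lower between the compounds, and the median for MNA was 0.65 in place of 0.81. With the replicate block 37 members rose with nicotinic acid, 32 of them among the 37 called without it, and 39 with MNA, with 34 of the 35, while 3 were lower between the compounds. Deviations of same-numbered libraries from their group means correlated weakly, from -0.201 to 0.159 and over 0.1 in 2 of 9 pairs. Those of libraries with other numbers ran from -0.114 to 0.158. With 3 libraries per group, such values cannot decide whether the numbers pair the libraries. Over the named genes, 1635 values kept their side of the threshold, 162 lost the call and 62 gained it. The cause was not tested. Depth limits the 47 members that were not tested.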

Other observations

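The gene lengths implied by the deposited RPKM values and the counts were set beside the exon lengths of WBcel235. Of 154 collagens with an implied length, 33 lay within 10% of the annotation, 72 differed by over 2-fold and 30 by over 10-fold. For col-19 the implied length was 15421 bases against 932 in the annotation. Over 22735 genes of the table, 18.5% lay within 10%. A constant length cancels in a fold change of 1 gene, but it moves a ranking of genes by RPKM.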
